A study of Mus musculus with 7 samples.

Results

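Vgf, Scg2, Sst, Npy, Penk, Tac1, Cartpt, Gad1, Gad2 and Slc17a7 are genes of neurons, described here in RNA from cells that had been enriched for astrocytes. They were chosen by name, as neuropeptide and transmitter genes of the amygdala, and all 10 are among the 35976 genes of the count table. The 7 libraries came from the amygdala of male C57BL/6J mice, 4 with a control guide RNA against the Rosa locus (sgRosa) and 3 with a guide against Egfr, the epidermal growth factor receptor gene (sgEgfr). All mice had received an adeno-associated virus (AAV) carrying Cas9 under the astrocyte promoter GfaABC1D, expressed for more than 2 weeks. All were then held in a restraint tube on 7 days, fear-conditioned on 1 day and given extinction training on 3 days, so no group was unstressed. Cells were freed with papain and pulled down with magnetic beads that bind the astrocyte antigen ACSA-2, and libraries were made from 5 ng of RNA. The study addressed the part of Egfr in astrocytes under chronic stress, and its only contrast is sgEgfr against sgRosa. The labels do not say that each library is a separate mouse, so p-values measure the spread between these libraries, which may be technical.

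Neuropeptides are cut from larger precursors inside dense-core vesicles, which neurons release more slowly than the synaptic vesicles that hold GABA or glutamate. Gad1 and Gad2 encode the enzymes that make GABA, and Slc17a7 encodes VGLUT1, the transporter that loads glutamate into synaptic vesicles in cortex, hippocampus and basolateral amygdala. In the amygdala, the basolateral nuclei hold mostly glutamatergic projection neurons, whereas the central nucleus is made up mostly of GABAergic neurons, many of which also make somatostatin, enkephalin or tachykinins. Several neuropeptide genes are switched on by cAMP and calcium through the factor CREB, which binds the cAMP response element, a short palindrome in their promoters.

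Promoters are shown for the 3 genes whose window held that full element, so that a shared regulatory sequence can be set beside their levels. Each line gives the 150 bases before the transcription start on the gene's strand, from RefSeq (GRCm38.p6), with the element in capitals.
Sst: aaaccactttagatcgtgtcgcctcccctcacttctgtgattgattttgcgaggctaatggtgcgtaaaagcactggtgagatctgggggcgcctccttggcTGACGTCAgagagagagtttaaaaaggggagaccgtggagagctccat
Scg2: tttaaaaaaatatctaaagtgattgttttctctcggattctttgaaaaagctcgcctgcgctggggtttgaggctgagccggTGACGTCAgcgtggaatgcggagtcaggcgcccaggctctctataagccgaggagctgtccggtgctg
Cartpt: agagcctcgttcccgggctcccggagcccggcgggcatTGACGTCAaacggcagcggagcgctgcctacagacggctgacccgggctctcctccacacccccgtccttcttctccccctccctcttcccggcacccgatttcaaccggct
The windows are chr16:23890845-23890994 (minus strand), chr1:79440027-79440176 (minus strand) and chr13:99900684-99900833 (minus strand). The element TGACGTCA, which reads the same on both strands, began 48 bases before the start in Sst, 68 in Scg2 and 112 in Cartpt. Vgf and Penk were not searched. Of the 8 members searched, 3 held it in the 250 bases before the start, against 1.56% of all 32536 such windows. The core TGACG, searched on both strands and contained in the full element, was present in 5 of 8, against 17.9% of all windows. Tac1 and Gad2 held the core without the full element, 43 and 197 bases before the start in Tac1 and 33 bases before it in Gad2, and neither motif was found in the windows of Npy, Gad1 and Slc17a7. These matches describe letters and do not show that a factor binds. Positions are counted from RefSeq starts, and the gene spans given below, from GENCODE M21, reach past these starts in Sst, Scg2 and Cartpt. Distances to the start therefore depend on the annotation.

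Total counts ran from 5852870 in sgRosa 4 to 22579222 in sgEgfr 3, so 3 counts stood for 0.513 and 0.133 CPM, the count scaled to a fixed library total, a limit that covers counting error only. Libraries sgRosa 3 and 4 were nearly within sampling noise of each other (chi-square of 1.04 per degree of freedom, against 14.8 to 158 in the other 20 pairs of libraries). Their sum, called sgRosa 3+4, served as a single sample, so each guide had 3 samples. Egfr itself was counted 188, 55, 109 and 58 times in the sgRosa libraries (1 to 4) and 169, 87 and 184 times in the sgEgfr libraries (1 to 3), and the position of its guide is not given in the sources used here. The 12 astrocyte markers listed summed to 5038 to 12084 CPM in the 6 samples and the 10 oligodendrocyte markers to 71698 to 142915 CPM, and the oligodendrocyte sum was the higher one in every sample.

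Transcripts of the pan-neuronal markers listed were a minor part of every library, and the share of all neuronal transcripts was not measured. The 20 pan-neuronal markers, led by the synaptic protein gene Snap25 and the cytoskeletal genes Map2 and Tubb3, summed to 975, 733, 890 and 885 CPM in sgRosa 1 to 4. They summed to 1080, 1082 and 1062 CPM in sgEgfr 1 to 3. All 3 sgEgfr values were above all sgRosa values, with means of 1074 ± 11.2 CPM and 865 ± 123 CPM (SD, n = 3 samples each), a ratio of 1.24. An exact two-sided permutation test gave p = 0.1, below which a design of this size cannot go. Without sgRosa 2, the lowest library, the ratio was 1.15. In bulk RNA, fewer neurons and less RNA per neuron cannot be told apart. The 10 members together took 43.7, 26.1, 33.6 and 32.6 CPM in sgRosa 1 to 4 and 57.3, 58.9 and 45.9 CPM in sgEgfr 1 to 3. Gad1 made up 36.5% of this sum on average.

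Levels of the members can be set against each other only per length, and on the scale of CPM per kilobase of annotated exon Scg2 came first and Slc17a7 last. The length was the union of all annotated exons of a gene, such as 7.639 kilobases for Gad1 and 2.515 for Scg2. The order depends on that choice of length. Scg2 stood at 2.67 ± 0.74, Gad2 at 2.22 ± 1.01, Npy at 2.21 ± 1.57 and Gad1 at 2.21 ± 1.01 CPM per kilobase (SD, n = 6 samples). These 4 means lay within 1 SD of each other. Sst (0.874 ± 0.444), Tac1 (0.856 ± 0.638), Penk (0.794 ± 0.515) and Cartpt (0.569 ± 0.630) followed, and their ranges overlapped. Vgf was at 0.298 ± 0.152 CPM per kilobase and Slc17a7 was last at 0.0598 ± 0.0689. Slc17a7, the only glutamatergic gene among the 10, was thus the least abundant per length, and its highest sample (0.183) was below the lowest sample of Gad1 (0.937).

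**Figure D1:**
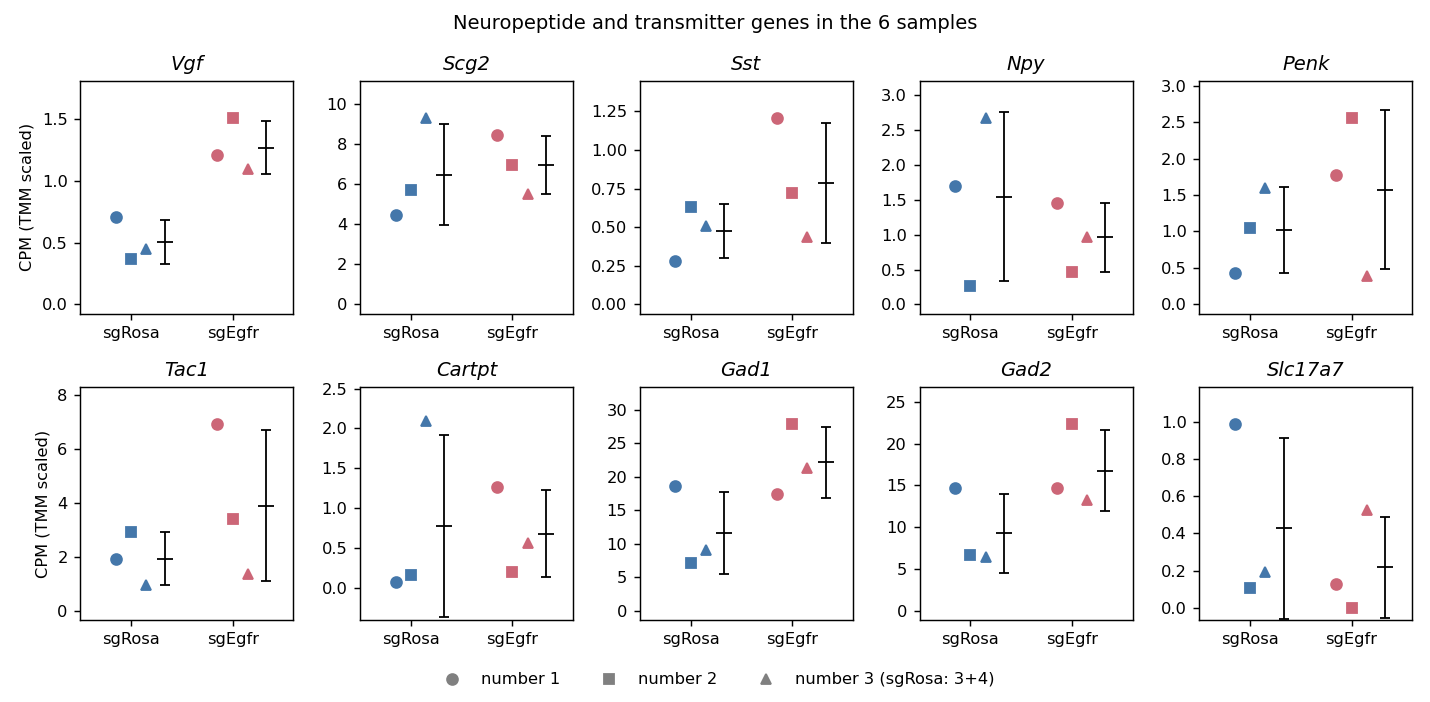
Level of each of the 10 genes (vertical axes, TMM-scaled CPM, each with its own range) in the 3 sgRosa samples (blue) and the 3 sgEgfr samples (red). Symbols give the library number, and the black bars are means with SD, which pass below 0 for Cartpt and Slc17a7. Vgf is the only gene whose groups do not overlap, with 0.366 to 0.706 CPM under sgRosa and 1.09 to 1.51 CPM under sgEgfr.

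No member passed the test between the guides. CPM values of single genes are scaled here with TMM factors, and edgeR's quasi-likelihood test was fitted over all 14936 genes that passed a filter on low counts, of which 0 (0%) had an adjusted p under 0.05. Of the 10 members, 8 passed that filter, and Cartpt and Slc17a7 did not. The log2 fold change was positive for 7 of these 8, beside 52.9% of all genes tested. Without the filter it was positive for 7 of all 10 members, beside 53.7% of 24809 genes, with a median of 0.66 over the 10 and 0.04 over all genes. An unadjusted edgeR p under 0.05 was found for 2 of the 8, Vgf and Gad1, beside 2.68% of all genes. Without the filter it was found for 2 of all 10, Gad1 and Gad2, beside 2.76% of all genes. The groups did not overlap for 1 of the 10 members, Vgf, beside 7.61% of the genes that passed the filter (3.76% with sgEgfr the higher group) and 6.56% without a filter. The smallest adjusted edgeR p among the 8 members was 0.997, and no member was called in 18 other fits, where the lowest adjusted p of these 8 was 0.500, for Tac1 (edgeR, DESeq2 or limma-voom). The genes were proposed with earlier results of these data known, so these counts describe the list and do not test it.

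The granin-type precursors are packed into dense-core vesicles of most peptide neurons. Vgf (chromosome 5, 137026392 to 137033351, GRCm38, as for all genes that follow) encodes a precursor whose mRNA is known to follow neuronal activity and growth factors. It was counted 10, 7, 5 and 2 times in the sgRosa libraries (1 to 4) and 19, 23 and 25 times in the sgEgfr libraries (1 to 3). Every sgEgfr library was above every sgRosa library in both counts and CPM. The sgRosa mean was 0.506 ± 0.178 CPM and the sgEgfr mean 1.27 ± 0.213 CPM (SD, n = 3). The log2 fold change of sgEgfr over sgRosa was 1.32, with a 95% confidence interval of 0.16 to 2.49 (SE 0.50, edgeR adjusted p = 0.997). With 10, 7 and 7 counts in the sgRosa samples, Vgf passed the filter through the sgEgfr samples, and without the filter the SE was 0.63 and the unadjusted edgeR p was above 0.05. With the filter and 1 library left out, the log2 fold change of Vgf ran from 1.13 to 1.63. Scg2 (chromosome 1, 79434669 to 79440120), the secretogranin II precursor, was counted 63, 109, 85 and 61 times in the sgRosa libraries (1 to 4) and 133, 106 and 126 times in the sgEgfr libraries (1 to 3). Its levels of 6.48 ± 2.51 and 6.96 ± 1.46 CPM overlapped widely, with sgRosa 3+4 the highest of all samples at 9.28 CPM. On the log2 scale the difference was 0.10 (SE 0.36, 95% confidence interval -0.74 to 0.95).

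Immediate early genes, which mark recent stimulation and also respond to tissue dissociation, differed among the same libraries. The 16 listed genes, led by Fos and Jun, summed to 1567, 2991 and 1518 CPM in sgRosa 1, 2 and 3+4 and to 2391, 4670 and 4935 CPM in sgEgfr 1 to 3, with 12 of the 15 tested positive and 0 called. The ranges overlapped in sgRosa 2 and sgEgfr 1. Within sgRosa, sgRosa 2 had the most immediate early transcripts and a Vgf level of 0.366 CPM. With 10, 7 and 7 Vgf counts in sgRosa 1, 2 and 3+4, the order of these samples for Vgf cannot be read. The part of the immediate early genes in the Vgf values was not tested.

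The 5 peptide precursor genes Sst, Npy, Penk, Tac1 and Cartpt had few counts, from 1 to 109 in a library. Sst (chromosome 16, 23889573 to 23890958) encodes somatostatin, an inhibitory peptide of GABAergic neurons. It was counted 4, 12, 7 and 1 times in the sgRosa libraries (1 to 4) and 19, 11 and 10 times in the sgEgfr libraries (1 to 3), or 0.473 ± 0.175 and 0.787 ± 0.388 CPM (SD, n = 3). The sgEgfr 3 level of 0.437 CPM lay below those of sgRosa 2 and sgRosa 3+4, so the groups overlapped, with a log2 fold change of 0.70 (SE 0.63).

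Npy (chromosome 6, 49822710 to 49829507), the gene of neuropeptide Y, was the only one of the 8 tested members with a negative log2 fold change, -0.67 (SE 0.81, 95% confidence interval -2.56 to 1.22). It was counted 24, 5, 26 and 16 times in the sgRosa libraries (1 to 4) and 23, 7 and 22 times in the sgEgfr libraries (1 to 3). The lowest library of each group was number 2, with 0.261 and 0.458 CPM, against 0.962 to 2.67 CPM in the other 4 samples. The groups overlapped, with means of 1.54 ± 1.21 CPM under sgRosa and 0.960 ± 0.500 CPM under sgEgfr (SD, n = 3). Without sgRosa 3+4 the log2 fold change was -0.001.

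Penk (chromosome 4, 4133531 to 4138819) encodes the precursor of the enkephalins, the opioid peptides of many central amygdala and striatal neurons. It was counted 6, 20, 13 and 12 times in the sgRosa libraries (1 to 4) and 28, 39 and 9 times in the sgEgfr libraries (1 to 3). The highest and the lowest level were both in sgEgfr, 2.55 CPM in sgEgfr 2 and 0.393 CPM in sgEgfr 3. The log2 fold change of 0.60 (SE 0.76) was 0.04 without sgEgfr 2. Tac1 (chromosome 6, 7554879 to 7565834) encodes substance P and neurokinin A. It was counted 27, 56, 8 and 7 times in the sgRosa libraries (1 to 4) and 109, 52 and 31 times in the sgEgfr libraries (1 to 3). sgEgfr 1 stood apart at 6.91 CPM, against 0.954 to 3.40 CPM in the other 5 samples. The log2 fold change was 1.00 (SE 0.66) and 0.29 without sgEgfr 1.

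Cartpt (chromosome 13, 99898489 to 99901091) encodes the CART peptides, known from hypothalamus, central amygdala and accumbens. It was counted 1, 3, 20 and 13 times in the sgRosa libraries (1 to 4) and 20, 3 and 13 times in the sgEgfr libraries (1 to 3). High and low libraries occurred under both guides, with sgRosa 3+4 at 2.10 CPM, sgEgfr 1 at 1.27 CPM and the remaining 4 samples at 0.0706 to 0.568 CPM. In a fit without a filter its log2 fold change was -0.19 (SE 1.09). Of the 3 genes in which the full cAMP response element was found, Sst was highest in sgEgfr 1 and Scg2 and Cartpt in sgRosa 3+4. With at most 19 counts of Sst and 20 of Cartpt in a library, these orders cannot bear on the element, whose role was not tested.

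**Figure D2:**
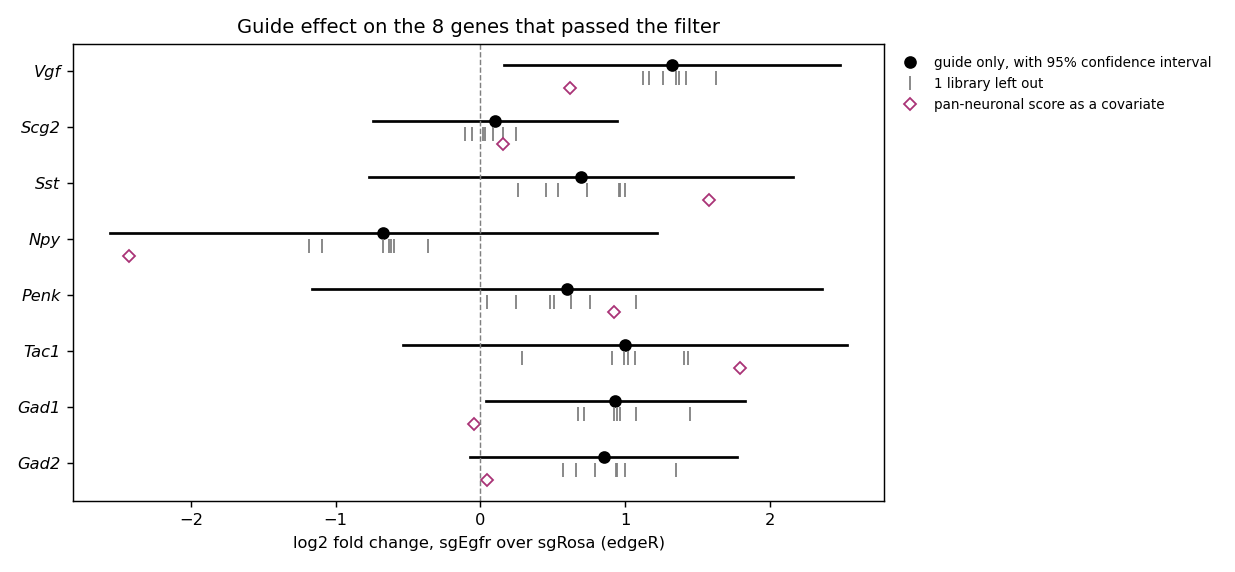
Log2 fold change of sgEgfr over sgRosa (horizontal axis) for the 8 genes that passed the filter (vertical axis). Black points and lines are edgeR estimates with 95% confidence intervals, grey ticks the estimates with 1 library left out, and diamonds the estimates with the pan-neuronal score as a covariate. Gad1 and Gad2 move from 0.93 and 0.85 to -0.05 and 0.04 with that covariate, which was itself related to the guide.

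Summed over the 7 libraries, the GABA genes had the most counts of the 10. Gad1 (chromosome 2, 70553072 to 70602014), which encodes GAD67, was counted 263, 137, 92 and 51 times in the sgRosa libraries (1 to 4) and 274, 425 and 486 times in the sgEgfr libraries (1 to 3). The mean was 11.6 ± 6.10 CPM under sgRosa and 22.1 ± 5.28 CPM under sgEgfr (SD, n = 3), or 0.93 as a log2 fold change (SE 0.38, 95% confidence interval 0.04 to 1.83). The groups overlapped through sgRosa 1, which at 18.6 CPM was above sgEgfr 1 at 17.4 CPM. Gad2 (chromosome 2, 22622205 to 22693874), which encodes GAD65, was counted 209, 128, 75 and 26 times in the sgRosa libraries (1 to 4) and 232, 341 and 303 times in the sgEgfr libraries (1 to 3). Its levels were 9.29 ± 4.73 and 16.8 ± 4.87 CPM, a log2 fold change of 0.85 (SE 0.40, 95% confidence interval -0.07 to 1.77), and sgRosa 1 (14.7 CPM) again reached into the sgEgfr range. Without sgRosa 1 the log2 fold changes were 1.45 for Gad1 and 1.35 for Gad2. They were lowest at 0.68 for Gad1, without sgRosa 2, and at 0.57 for Gad2, without sgEgfr 2, and no call was made in any of these fits (edgeR).

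The levels of Gad1 and Gad2 ran close to each other. Over the 6 samples, log2 CPM of the pair had a Pearson r of 0.963 (exact permutation p = 0.0153, adjusted p = 0.143 over 28 pairs of members) and a Spearman rho of 0.771 (exact permutation p = 0.103, adjusted p = 0.576). Without the 2 samples farthest from the median of Gad1, r was 0.812. Gad2 counts were 0.510 to 0.934 times those of Gad1 in the 7 libraries. The next closest pairs were Vgf with Gad1 (r = 0.937, exact permutation p = 0.00694, adjusted p = 0.143; rho = 0.829, exact permutation p = 0.0583, adjusted p = 0.576; r = 0.638 without the 2 farthest) and Vgf with Gad2 (r = 0.925, exact permutation p = 0.0111, adjusted p = 0.143; rho = 0.771, exact permutation p = 0.103, adjusted p = 0.576; r = 0.617 without the 2 farthest). No pair passed the adjustment. The 6 samples share the guide contrast, and no r was computed within a guide because each has only 3 samples.

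The estimates for Gad1 and Gad2 depended on whether the fit held the pan-neuronal score, the mean log2 CPM of the 20 markers. With that score as a covariate the log2 fold change was -0.05 (SE 0.43) for Gad1 and 0.04 (SE 0.54) for Gad2, against 0.93 and 0.85 with the guide alone. That of Vgf was 0.62 (SE 0.83), of Tac1 1.79 (SE 1.12), of Sst 1.58 (SE 1.16) and of Npy -2.43 (SE 1.26). No member was called with the covariate (edgeR). The score and the guide were themselves related, so the fit cannot tell their shares apart. Relative to the pan-neuronal counts, the 2 GAD genes gave 34.1, 19.7, 18.98 and 14.9 counts per 1000 in sgRosa 1 to 4 and 31.3, 41.4 and 32.9 in sgEgfr 1 to 3. Unlike the covariate estimates, these ratios still placed sgRosa 2, 3 and 4 below every sgEgfr library, with sgRosa 1 inside the sgEgfr range. The difference in these ratios was not tested. The 7 peptide precursors gave 9.75, 15.8, 18.6 and 21.6 per 1000 in sgRosa 1 to 4 and 21.7, 13.03 and 9.85 in sgEgfr 1 to 3. Peptide genes and GAD genes therefore did not vary in parallel, and the peptide values were lowest in sgRosa 1 and sgEgfr 3.

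Slc17a7 (chromosome 7, 45163949 to 45176142) was near the detection limit. It was counted 14, 2, 1 and 2 times in the sgRosa libraries (1 to 4) and 2, 0 and 12 times in the sgEgfr libraries (1 to 3). In sgEgfr 2 the count was 0 beside 766 counts of Gad1 and Gad2, which allows a share of up to 0.392% of the 3 genes' counts if 3 counts are taken as the limit, or 0.480% as the upper end of an exact 95% Clopper-Pearson interval. As a share of the counts of Slc17a7, Gad1 and Gad2, it made up 2.88% in sgRosa 1 (95% exact Clopper-Pearson interval 1.58 to 4.79) and 1.498% in sgEgfr 3 (0.776 to 2.60). The other 5 libraries had at most 2 counts each. In a fit without a filter its log2 fold change was -0.86 (SE 1.26).

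**Figure D3:**
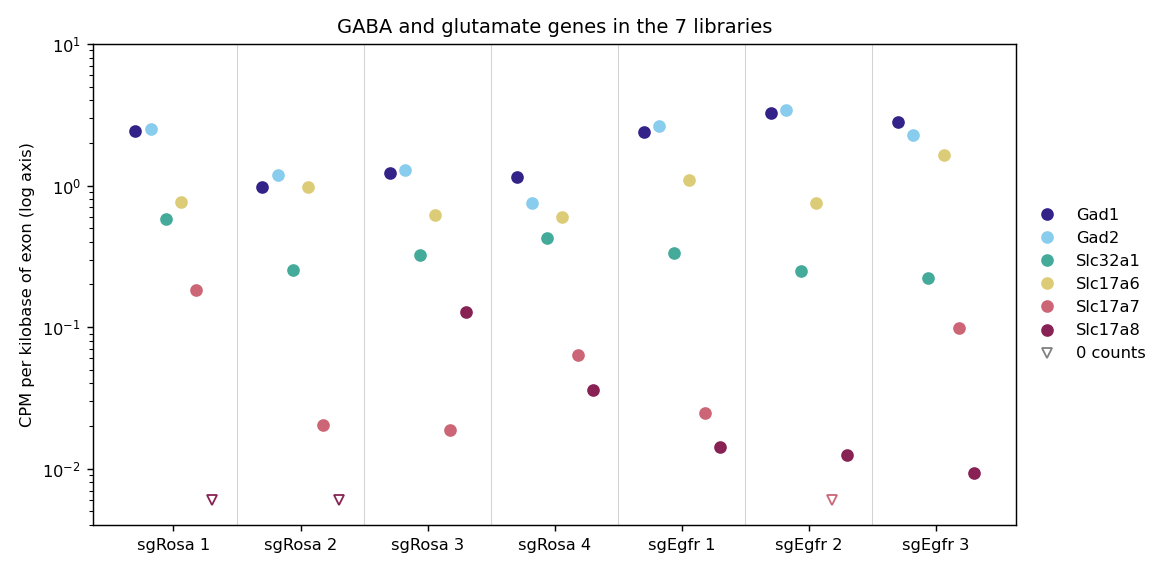
Level per length (vertical log axis, CPM of the library total per kilobase of exon) of GABA genes (Gad1, Gad2, Slc32a1) and vesicular glutamate transporter genes (Slc17a6, Slc17a7, Slc17a8) in each of the 7 libraries (horizontal axis). Open triangles at the foot mark 0 counts. Slc17a6 is above Slc17a7 in all 7 libraries, and Slc32a1 is below Gad1 and Gad2.

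Other genes of the same pathways were read from lists that included few strongly expressed members. Among vesicular transporters, Slc17a6, which encodes VGLUT2 and is typical of thalamus, hypothalamus and medial amygdala, had 19 to 201 counts. Per length it exceeded Slc17a7 in all 7 libraries, at 0.601 to 1.65 against 0 to 0.183 CPM per kilobase. Slc32a1, which encodes the GABA transporter of synaptic vesicles, had 7 to 23 counts, or 0.222 to 0.579 CPM per kilobase. Its counts stood at 4.87%, 4.91%, 5.39% and 9.09% of the summed Gad1 and Gad2 counts in sgRosa 1 to 4 and at 2.77%, 1.57% and 1.77% in sgEgfr 1 to 3. The sgRosa 4 share rested on 7 counts of Slc32a1, and that of sgRosa 3+4 as a single sample was 6.56%. The 3 sgEgfr shares were all below the sgRosa shares. How often ratios of other genes separate the guides as well was not counted. The level of Slc32a1 itself overlapped between the guides. Slc32a1 had a negative log2 fold change of -0.53 (SE 0.52) where Gad1 and Gad2 had positive ones. That difference between the genes was not tested.

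Of the 10 other GABAergic neuron genes, 5 were tested, 4 of them positive and 0 called. Calb2, a calcium-binding protein of some interneurons, had 142 to 776 counts, and Pvalb, another, 64 to 453. Transcripts for some developmental regulators of forebrain interneurons were scarce. Dlx1, Dlx2, Dlx5, Dlx6, Dlx6os1 and Lhx6 summed to 6, 37, 23 and 17 counts in sgRosa 1 to 4 and to 68, 62 and 0 in sgEgfr 1 to 3. In sgEgfr 3 all 6 were at 0, although that library was the deepest and held 789 counts of Gad1 and Gad2. This grouping of 6 was singled out after the values were seen.

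Of the 12 other glutamatergic neuron genes, 4 were tested, 3 of them positive and 0 called. Camk2a, a kinase of excitatory synapses, had 173 to 637 counts, and Nrgn, a calmodulin-binding protein of forebrain dendrites, had 4 to 41. Among the less counted genes of the list, Neurod6, Tbr1, Emx1, Neurod2 and Neurod1 had at most 6, 9, 13, 16 and 50 counts in any library. The last 3 and Sv2b, a synaptic vesicle protein gene with 1 to 144 counts, had their maximum in sgEgfr 3.

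The machinery that makes peptides was read from a list of its own. The 12 dense-core vesicle and processing genes summed to 2621 to 6177 CPM in the 6 samples, of which Cpe, carboxypeptidase E, took 86.8% on average. Cpe and Scg3 are known from astrocytes too, so this sum is no measure of neurons. Of 11 tested, 9 were positive and 0 called. Pcsk1, the convertase that cuts many precursors, had 1 to 19 counts. Of 13 other neuropeptide genes, 5 were tested, 4 of them positive and 0 called, and the 13 summed to 4.45 to 13.5 CPM. Nmb, the neuromedin B gene, had 22 to 136 counts, Nts, the neurotensin gene, 4 to 48, and Cck, the cholecystokinin gene, 4 to 26.

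Of the 12 receptor genes for these peptides, 8 had at most 8 counts in any library, and 2 were tested, 2 positive and 0 called. Sstr1, a somatostatin receptor, was the best counted, with 41, 92, 8 and 9 counts in sgRosa 1 to 4 and 201, 72 and 106 in sgEgfr 1 to 3. The mean was 2.93 ± 1.86 CPM under sgRosa and 7.36 ± 4.66 CPM under sgEgfr (SD, n = 3), or 1.32 as a log2 fold change (SE 0.63, edgeR adjusted p = 0.997), with overlap between sgRosa 2 and the sgEgfr range. Sstr4 and Npy5r had 0 counts in all 7 libraries. Npy2r had 127 counts in sgEgfr 3 and at most 13 in any other library.

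Gene lists for brain regions were read for the origin of the dissected tissue. Basolateral amygdala genes could not be read as a sum, because Etv1 took 89.2% of it, and Rspo2, a marker of basolateral projection neurons, had at most 3 counts in any library. The other genes of that list were better counted, with 11 to 83 counts of Lmo3 and 38 to 2356 of Dkk3, both highest in sgEgfr 3. The central amygdala list was led by Prkcd, the protein kinase C delta gene of central amygdala neurons that is also strong in thalamus. Prkcd was counted 630, 172, 75 and 52 times in the sgRosa libraries (1 to 4) and 121, 144 and 509 times in the sgEgfr libraries (1 to 3). Crh, the corticotropin-releasing hormone gene of the central nucleus, had 0 counts in the 4 sgRosa libraries and 1, 1 and 3 in sgEgfr 1 to 3. Of 7 central amygdala genes 5 were tested, 4 positive and 0 called, and of 4 basolateral genes 3 were tested, 3 positive and 0 called.

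The 2 libraries with the most Prkcd, sgRosa 1 and sgEgfr 3, were also those with the most thalamic transcripts and the most Slc17a7. The 4 thalamic genes summed to 26.3 CPM in sgRosa 1 and 23.8 CPM in sgEgfr 3, against 4.00 to 9.61 CPM in the other 5 libraries. Tnnt1, one of them, had 145 and 174 counts there and 23 to 50 elsewhere, and Lhx9 had 61 and 86 counts there and 0 to 9 elsewhere. High and low libraries of the thalamic genes thus occurred under each guide. Slc17a6, named above as typical of thalamus among other regions, was highest in sgEgfr 3 at 1.65 CPM per kilobase. In sgRosa 1 it stood at 0.770 CPM per kilobase, below sgRosa 2 (0.969) and sgEgfr 1 (1.10).

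Transcripts of peptides best known from hypothalamic neurons were most numerous in another library. Avp (vasopressin), Oxt (oxytocin), Hcrt (orexin) and Pmch (melanin-concentrating hormone) summed to 0, 10, 20 and 13 counts in sgRosa 1 to 4 and to 145, 39 and 7 in sgEgfr 1 to 3. sgEgfr 1, with 44, 31, 37 and 33 counts of these 4 genes in that order, was also the library with the highest Tac1 and Sst levels of the members. Pomc, the melanocortin precursor, was likewise highest there, with 113 counts against 30 to 72 elsewhere. These 4 genes were picked from the list of 8 hypothalamic genes after their values were seen. The whole list summed to 22.6 CPM in sgEgfr 1, below sgRosa 3 and 4 (23.3 and 29.6 CPM) and sgEgfr 3 (53.5 CPM), where Hdc alone had 1125 counts, and Agrp was at 0 in sgEgfr 1. The part of the 4 genes in the Tac1 and Sst values was not tested. Without sgEgfr 1 the log2 fold change of Sst was 0.26 and that of Tac1 0.29.

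**Figure D4:**
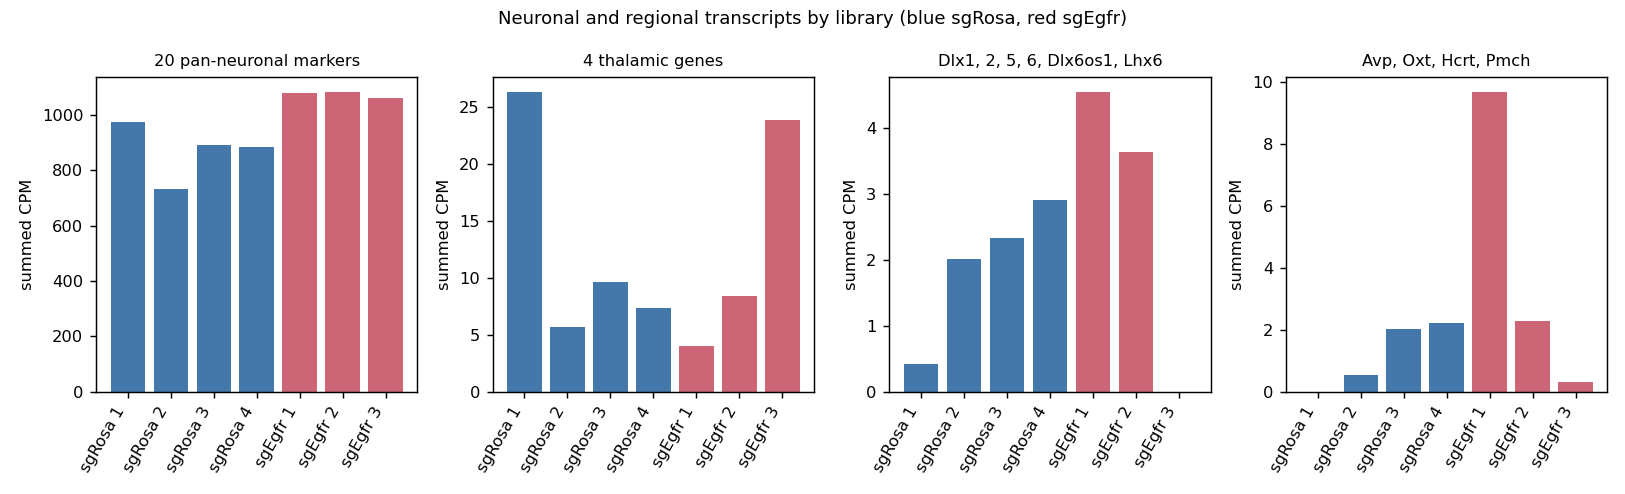
Summed CPM of the library total (vertical axes, from 0) of the 20 pan-neuronal markers, the 4 thalamic genes, 6 genes of forebrain interneuron regulators and 4 hypothalamic peptide genes in the 7 libraries (horizontal axes, blue sgRosa, red sgEgfr). The pan-neuronal sum is 1062 to 1082 CPM in the 3 sgEgfr libraries and 733 to 975 CPM in the 4 sgRosa libraries, and the other panels do not separate the guides.

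Striatal, cortical and hippocampal sums each rested mainly on 1 gene. Of the 10 striatal genes, Ppp1r1b, the DARPP-32 gene, made up 74.0% of the sum, while the dopamine receptor gene Drd2 had 2 to 10 counts and Drd1 0 to 31, its maximum in sgEgfr 3. Adora2a, an adenosine receptor gene, had 56 to 185 counts, Pde10a, a phosphodiesterase gene, 21 to 181, Rarb 29 to 118 and Rgs9 26 to 111. Rorb took 74.9% of the cortical sum and Prox1 78.6% of the hippocampal sum. Cerebellar and hindbrain genes (Gabra6, Cbln3, Pcp2, Slc6a5 and Hoxb5) had 0 to 3 counts each, apart from Slc6a5 with 18 in sgEgfr 3. None of the tested genes in these lists was called.

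Markers of other cells also differed between libraries. Ependymal markers, from cells that line the ventricles, summed to 1010 CPM in sgEgfr 3, to 358 and 374 CPM in sgRosa 4 and 3, and to 28.1 to 71.0 CPM in the other 4 libraries. Oligodendrocyte precursor markers summed to 533 to 727 CPM in the sgRosa samples and 655 to 1158 CPM in sgEgfr, and endothelial markers to 46.5 to 71.9 and 71.6 to 87.1 CPM. All of these lists overlapped between the guides and had no called gene, and their part in the members' values was not tested.

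Likeness to the members was measured over all other genes. Among 9038 other genes with a mean of at least 10 CPM, Pkia (r = 0.978), Apex1 (0.978), Tmem191c (0.960), Mrps16 (0.958) and Masp1 (0.953) had the highest Pearson correlation with the mean log2 CPM of the 8 tested members over the 6 samples. For Vgf alone they were Atpaf2 (0.977), Eef1akmt1 (0.976), Sumf1 (0.974), Banp (0.972) and Chtf8 (0.970). With 6 samples and that many genes, such values are a description only.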

How the data were processed

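The deposited values are raw counts of reads per gene, as whole numbers, in 1 table whose columns equal the 7 per-library files. Per the submitters' processing notes, the authors used mm10, fastp 0.23.2, STAR 2.7.5c and featureCounts 2.0.1, with edgeR 3.42.4, MultiQC 1.11 and FastQC 0.11.9 also named. For annotation, strand setting and multi-mapping, nothing is given in the sources used here: reads of Gad1 and its antisense gene Gad1os (at most 12 counts) may not be separable. Counts of sgRosa 3 and 4 were summed. Genes were filtered with filterByExpr (minimum count 10, total 15), scaled by TMM and tested for the guide, without covariates, by glmQLFit and glmQLFTest (edgeR 4.0.16, R 4.3.3), with Benjamini-Hochberg adjustment over 14936 genes. List sums are CPM of library totals. Exon lengths came from GENCODE M21 (GRCm38) and promoters from RefSeq. The script was tested on simulated counts with 3 samples per guide and 1 spread shared by all genes. There it called 3.88% of 2-fold, 65.7% of 4-fold and 94.8% of 8-fold changes. Most 2-fold changes would thus be missed by this design. Members and lists were chosen with earlier results of these data known. Named were all members, Egfr, up to 4 abundant genes per list and the 5 genes of most similar pattern, and further list genes were picked after their values were seen. Alternatives were other scalings, filters, DESeq2 1.42.0, limma-voom (limma 3.58.1), the replicate number as a block, libraries left out, 7 separate libraries and a pan-neuronal covariate.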

Additional observations from a re-analysis of the deposited data

How the results depend on the processing

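With edgeR, DESeq2 and limma-voom, 0 genes were called in any of the 18 alternative fits, while 401 genes had an unadjusted edgeR p under 0.05, 500 with DESeq2 and 418 with limma-voom. The stricter filter left 3 members, all 3 positive. With single libraries left out, 6 to 8 of the 8 or 9 members tested were positive, and with 7 separate libraries 5 of 8. The log2 fold change of Scg2 changed sign without sgRosa 1 (-0.11), without sgEgfr 1 (-0.059) and with 7 separate libraries (-0.057), with a range of -0.11 to 0.25 over single libraries left out and 0.45 without sgRosa 3 and 4, and that of Gad1 with the pan-neuronal covariate (-0.046). The pan-neuronal ratio stayed between 1.15 and 1.33 over all settings tried, TMM scaling (added after seeing the data) included. The samples with the same number did not deviate together in every pair (r = -0.11, 0.52 and 0.55 for numbers 1 to 3). Samples of unlike number had r from -0.58 to 0.26, below the values of numbers 2 and 3. These values do not settle whether the numbers mark pairs, and the main fit did not pair them. The replicate block gave 0 calls, 705 genes at an unadjusted edgeR p under 0.05 and 7 positive members. Depth limits Sst, Vgf, Cartpt and Slc17a7, at 25 or fewer counts in every library.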

Other observations

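Some transcripts of other neurons peaked in single libraries. Th, the tyrosine hydroxylase gene of dopamine and noradrenaline neurons, was counted 5, 146, 81 and 38 times in the sgRosa libraries (1 to 4) and 32, 366 and 28 times in the sgEgfr libraries (1 to 3), and the dopamine transporter gene Slc6a3 had 39 counts in sgEgfr 2 and at most 6 in any other library. Hdc, the histidine decarboxylase gene of histamine neurons and mast cells, was counted 19, 26, 171 and 127 times in the sgRosa libraries (1 to 4) and 75, 5 and 1125 times in the sgEgfr libraries (1 to 3), and was highest in the library with the most ependymal transcripts. Chgb, a granin of dense-core vesicles, had 744 counts in sgEgfr 3 and 24 to 129 elsewhere, where Scg2 and Vgf showed no such peak.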
